A study of Homo sapiens with 8 samples.

Results

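The MHC class I antigen presentation genes are 9 genes chosen by name: the heavy chain genes HLA-B, HLA-C, HLA-E and HLA-F, the light chain gene B2M, the peptide transporter genes TAP1 and TAP2, the tapasin gene TAPBP, and NLRC5, which encodes an activator of class I transcription. All 9 were among the 11244 genes of the translation efficiency (TE) table and among the 14054 genes tested in input RNA. Ribosome profiling was carried out on 2 METTL5-WT (WT) and 2 METTL5-KO (KO) lysates of cells labelled HepG2, an established human liver cancer line. METTL5 methylates adenosine in 18S ribosomal RNA. The knockout was made with CRISPR/Cas9 guides that, per the labels, excise exons 2 and 3 of METTL5. All cells of both genotypes were grown in the same medium and received cycloheximide, which arrests ribosomes on the mRNA. A portion of every lysate was set aside as input RNA, and MNase digestion of the remainder left ribosome-protected fragments (RPF), which gave 8 libraries in 4 groups with 2 libraries in each. Cells had been expanded from single clones, and which clone gave which replicate is not stated, so clone and genotype cannot be told apart. Nothing states that the replicates were separate cultures, so p-values measure only the spread between these libraries.

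Class I molecules display short peptides from inside the cell to cytotoxic T cells and natural killer cells. The proteasome cuts proteins into peptides, the TAP1-TAP2 transporter carries the peptides into the endoplasmic reticulum, and tapasin bridges the transporter to a waiting heavy chain paired with beta-2-microglobulin (B2M), the shared light chain. HLA-B and HLA-C are classical, highly polymorphic heavy chains, whereas HLA-E and HLA-F vary less and are known as ligands of natural killer cell receptors. Interferons raise transcription of nearly all of these genes, through factors such as IRF1 at interferon-stimulated response elements (ISRE) and through NLRC5 acting with the RFX, CREB and NF-Y factors.

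Input libraries held 10710226 to 15307257 counts, and the RPF libraries 3970779 and 4592443 reads in WT and 8626705 and 9255921 reads in KO, so low genes were least precise in WT RPF. METTL5 itself checked the labels: its input counts were 490 and 542 in WT and 208 and 151 in KO (log2 fold change -1.86 ± 0.18 SE, adjusted p = 7.17e-08 by edgeR). The labelled cell line was not borne out by its markers. All 8 hepatocyte marker genes examined (ALB, AFP, APOA1, APOB, TTR, FGB, SERPINA1 and HNF4A) had at most 9 counts in every input library, and 3 of them were at 0 throughout. Their summed level, as counts relative to the library total (CPM), was 0.28 to 0.36 in WT and 0.47 to 0.78 in KO. None was in the TE table. The 10 immune cell markers summed to 0 to 1.03 CPM and the 4 endothelial markers to 0.65 to 1.25. The 4 fibroblast markers summed to 53.2 and 63.8 CPM in WT and 66.0 and 76.2 in KO, but differed among themselves. COL1A1 was highest, with 429 and 484 input counts in WT and 666 and 937 in KO. COL1A2 had at most 1 count in every input library, and DCN and PDGFRB had 52 to 170. The libraries are therefore called by their genotype labels here, and the part that the identity of the cells plays in any result was not tested. In these bulk libraries, a change in the number of cells that express a gene and a change in the RNA per cell cannot be told apart.

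The 4 heavy chain genes are close relatives, and the pipeline kept only reads that mapped to 1 place, with RPF of 25 to 34 nucleotides and up to 2 mismatches. The coding sequence of each member's canonical transcript (GENCODE release 44) was therefore cut into all windows of 30 bases, about the length of a footprint, and each window was looked for in the canonical transcripts of all other genes. In HLA-B, 17.98% of 1057 windows were identical to a window of another gene and 84.4% matched another gene within 2 mismatches. The corresponding shares were 22.6% and 80.3% of 1069 windows in HLA-C, 20.6% and 59.5% of 1045 in HLA-E, and 10.5% and 60.5% of 1297 in HLA-F. HLA-B shared most with HLA-C, within 2 mismatches over 68.1% of its windows. The following run is identical in all 4 heavy chain genes, as were 11 windows of HLA-B in all, and shows where a footprint cannot be assigned to a single gene.
HLA-B coding bases 653 to 682, exon 4, chr6:31355530-31355559 (minus strand, hg38): tctctgaccatgaggccaccctgaggtgct
HLA-C coding bases 653 to 682, exon 4, chr6:31270423-31270452 (minus strand): tctctgaccatgaggccaccctgaggtgct
HLA-E coding bases 644 to 673, exon 4, chr6:30491170-30491199 (plus strand): tctctgaccatgaggccaccctgaggtgct
HLA-F coding bases 644 to 673, exon 4, chr6:29725064-29725093 (plus strand): tctctgaccatgaggccaccctgaggtgct

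The next run, in exon 5, is the window of HLA-B least like the other 3 genes, and shows where the genes can be told apart. Capitals mark bases that differ from HLA-B, which number 9 in HLA-E and 7 in HLA-F.
HLA-B coding bases 943 to 972, chr6:31355147-31355176 (minus strand, hg38): ctggctgtcctagcagttgtggtcatcgga
HLA-E coding bases 934 to 963, chr6:30491584-30491613 (plus strand): ctggTtCtcctTgGaTCtgtggtcTCTgga
HLA-F coding bases 934 to 963, chr6:29725494-29725523 (plus strand): ctTgTtgtcctTgGagCtgtggtcaCTgga

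B2M, TAPBP and NLRC5 had no window within 2 mismatches of another gene, and TAP1 had 3.70%. TAP2 shared 93.9% of its 2029 windows with an overlapping gene model, ENSG00000250264, which had 0 counts in every input library. These are reference sequences, and the heavy chain alleles of the cells were not examined. Counts of HLA-B, HLA-C, HLA-E, HLA-F and TAP2 are therefore uncertain as counts of those genes alone, and how far reads moved between them was not tested.

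**Figure D1:**
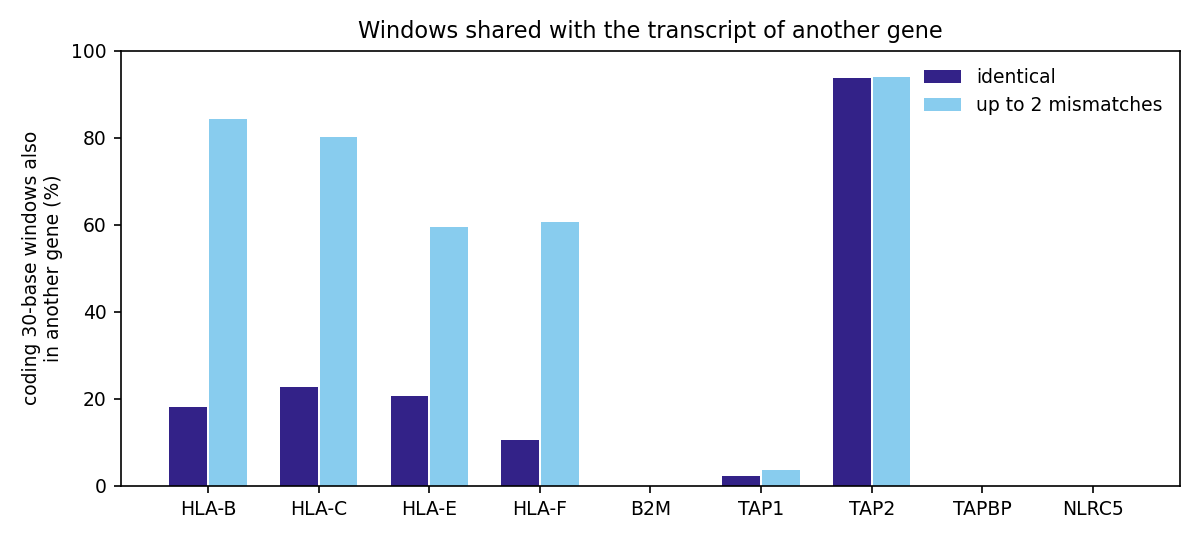
Percentage of each gene's coding windows of 30 bases that also occur in the canonical transcript of another gene, identical (dark bars) or with up to 2 mismatches (light bars). The 4 heavy chain genes and TAP2 stand above 59% for the looser match, whereas TAP1 is at 3.70% and B2M, TAPBP and NLRC5 are at 0.

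To ask whether loss of METTL5 goes with a change in class I mRNA, input counts were compared between genotypes with edgeR's quasi-likelihood test over all 14054 genes. All 9 members were higher in KO, 9 of 9 with adjusted p under 0.05, against 11.8% of all genes called higher. Their median log2 fold change was 1.69, beside 0.00 over all genes tested. In RPF, tested with limma over 11240 genes, 7 of 9 members were called higher against 13.8% of all genes, and 0 were called lower. On the reads recovered from the same table, edgeR also called 7 of 9 higher, against 13.1% of all genes. The median RPF change of the members was 1.78, beside 0.02 over all genes. No member's KO libraries overlapped its WT libraries in either measure. The share of all genes without such overlap was not counted, so this describes the members' libraries and is no test. With 2 libraries against 2, an exact permutation test of a single gene cannot go below 0.333.

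**Figure D2:**
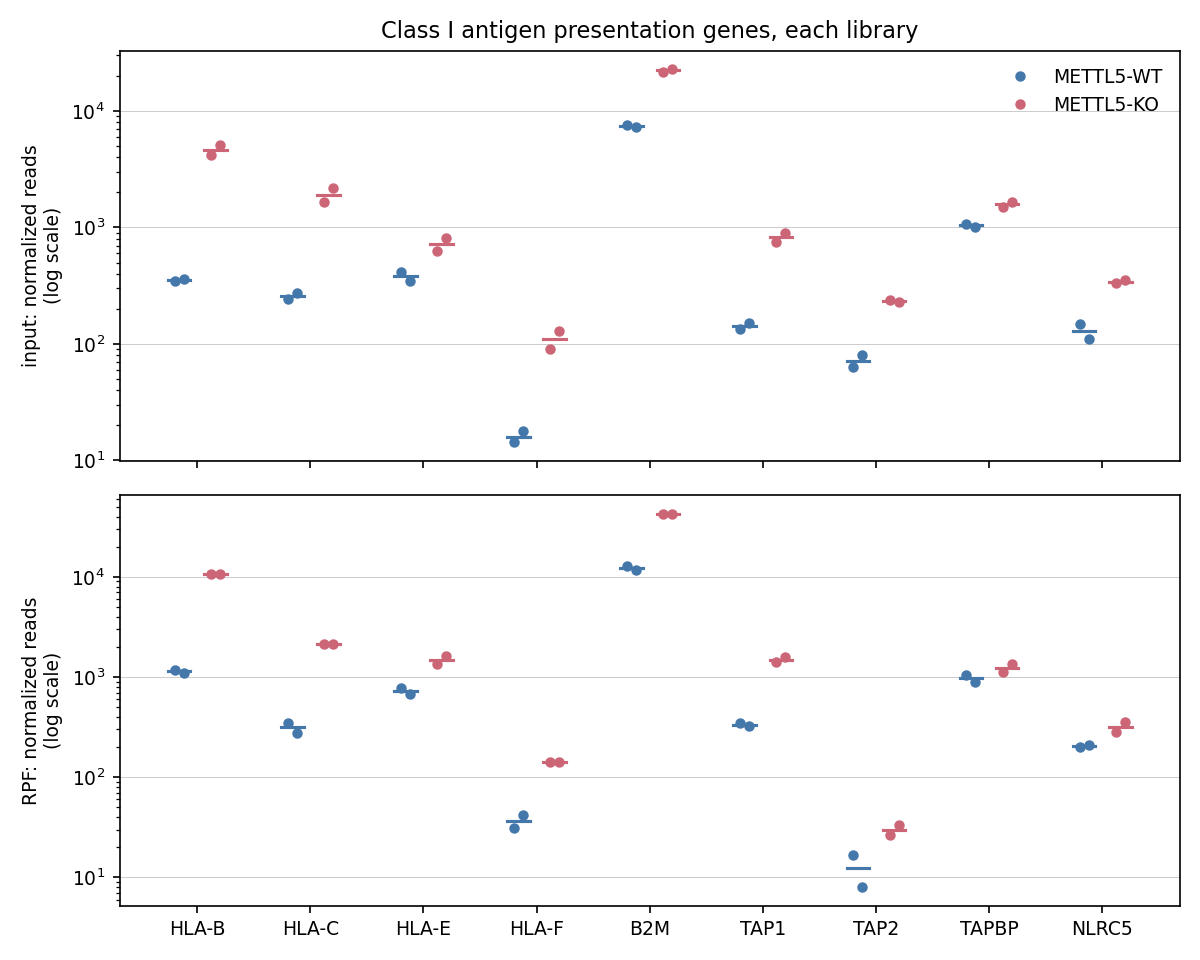
Normalized reads (log scale) of each gene in every library, in input (top) and RPF (bottom), with points for libraries and bars for group means (n = 2). The KO points lie above the WT points for all 9 genes in both panels, with the widest gap for HLA-B and the narrowest for TAPBP.

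HLA-B (ENSG00000234745; chr6:31353872-31367067, minus strand), a classical heavy chain, changed most among the members. Its input counts were 514 and 507 in WT and 6969 and 10153 in KO. Normalized for library size, these were 355 ± 7.27 reads in WT and 4649 ± 634 in KO (SD, n = 2). Both knockout libraries stood more than 10-fold above both wild-type libraries. The log2 fold change was 3.70 ± 0.14 (SE, adjusted p = 1.25e-15 by edgeR), which ranked 82 from the top of the 14054 genes tested. Its RPF reads were 497 and 553 in WT and 8945 and 9691 in KO, or 1145 ± 50.7 and 10797 ± 13.3 normalized reads (SD, n = 2). The RPF log2 fold change was 3.24 ± 0.09 (SE, adjusted p = 4.79e-13 by limma; edgeR adjusted p = 1.32e-16), rank 26 of 11240.

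HLA-C (ENSG00000204525; chr6:31268749-31272130, minus strand), the other classical heavy chain among the members, rose next most in both measures. Input counts were 356 and 382 in WT and 2771 and 4315 in KO. Its input log2 fold change was 2.89 ± 0.14 (SE, adjusted p = 2.39e-13 by edgeR). The lower knockout library was still far above the higher wild-type library, at 1670 against 271 normalized reads. RPF reads were 148 and 139 in WT and 1774 and 1907 in KO, and the RPF log2 fold change was 2.76 ± 0.13 (SE, adjusted p = 3.68e-10 by limma). The knockout libraries thus nearly coincided in RPF, at 2139 and 2126 normalized reads, while their input values differed more, at 1670 and 2166.

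HLA-F (ENSG00000204642; chr6:29722775-29738528, plus strand), a non-classical heavy chain, was the least abundant heavy chain and rose about as much as HLA-C in input. It had 21 and 25 input counts in WT and 151 and 257 in KO (log2 fold change 2.77 ± 0.29 SE, adjusted p = 1.29e-07 by edgeR). Few footprints were seen in WT, 13 and 21 reads, beside 118 and 126 in KO. The RPF log2 fold change was 1.94 ± 0.34 (SE, adjusted p = 0.000615 by limma), with the largest error among the 7 members called in RPF.

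HLA-E (ENSG00000204592; chr6:30489509-30494194, plus strand), which presents leader peptides of other class I chains to natural killer cell receptors, moved least among the heavy chains. Input counts were 607 and 493 in WT and 1052 and 1610 in KO, and RPF reads were 325 and 336 in WT and 1130 and 1454 in KO. The log2 fold change was 0.91 ± 0.14 in input (SE, adjusted p = 3.30e-05 by edgeR) and 1.04 ± 0.12 in RPF (SE, adjusted p = 1.44e-05 by limma). The change of HLA-E was called, at about 2-fold in both measures, beside 13.0-fold and 9.43-fold for HLA-B.

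Because the heavy chains rose unequally, their proportions shifted. Per length (TPM, counts per length scaled to a fixed total per library over the count table), HLA-B made up 32.5% and 33.96% of the summed input level of the 4 heavy chain members in WT and 60.6% and 59.1% in KO. HLA-E made up 39.6% and 34.1% in WT and 9.45% and 9.67% in KO. The share of HLA-C hardly moved, at 27.0% and 30.8% in WT and 29.0% and 30.2% in KO. In RPF per kb of coding length, HLA-B made up 50.6% and 52.8% in WT and 74.9% and 73.7% in KO. The WT and KO ranges of the HLA-B and HLA-E shares did not overlap in either measure. Input shares rest on exon length and RPF shares on coding length, so they cannot be compared between the measures. Since these genes share sequence, the shares are those of reads that could be assigned.

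**Figure D3:**
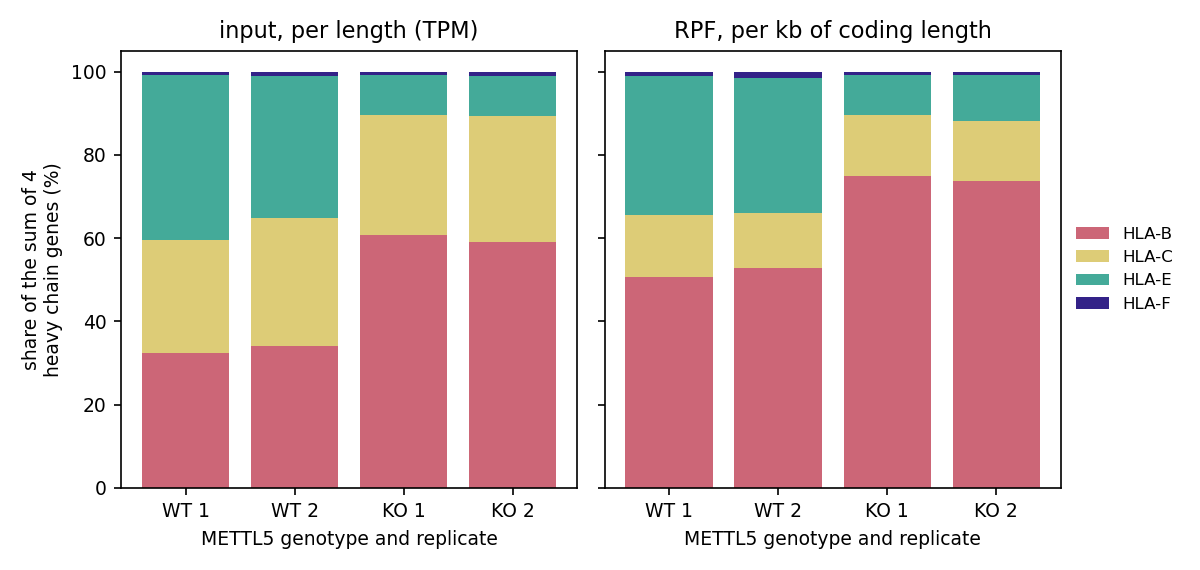
Share of each heavy chain gene in the sum of the 4 heavy chain members, in every library, for input per length (left) and RPF per kb of coding length (right). HLA-B rises from 32.5% and 33.96% to 60.6% and 59.1% of the input sum, and HLA-E falls from 39.6% and 34.1% to 9.45% and 9.67%.

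B2M (ENSG00000166710; chr15:44711358-44718851, plus strand), the invariant light chain, was by far the most abundant member and rose about 3-fold. Input counts were 11052 and 10359 in WT and 36215 and 45368 in KO. The log2 fold change was 1.57 ± 0.12 (SE, adjusted p = 5.78e-10 by edgeR). RPF reads rose from 5381 and 5864 in WT to 34898 and 37988 in KO, with a log2 fold change of 1.78 ± 0.10 (SE, adjusted p = 1.92e-09 by limma). B2M is the only member of this set on chromosome 15, and it shares no window with another gene, so its counts do not depend on how heavy chain reads were assigned. The summed input level of the 4 heavy chains per length was 0.259 and 0.261 times that of B2M in WT and 0.574 and 0.685 times in KO. In RPF per kb of coding length the 4 heavy chains summed to 0.0600 and 0.0587 times B2M in WT and 0.112 and 0.114 times in KO. Input was divided by exon length and RPF by coding length. These ratios can therefore be compared between genotypes but not between input and RPF.

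Of the peptide loading genes, TAP1 (ENSG00000168394; chr6:32845209-32853816, minus strand) rose most. This subunit of the peptide transporter had 199 and 212 input counts in WT and 1243 and 1792 in KO, a log2 fold change of 2.51 ± 0.14 (SE, adjusted p = 3.69e-12 by edgeR). Its RPF reads were 146 and 161 in WT and 1171 and 1407 in KO, a log2 fold change of 2.15 ± 0.12 (SE, adjusted p = 5.22e-09 by limma). The replicates of each genotype lay close together beside this 5.72-fold change in input and 4.44-fold change in RPF.

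TAP2 (ENSG00000204267; chr6:32821833-32838739, minus strand), the partner subunit, rose in input but was not called in RPF, where it had few reads. Input counts were 94 and 112 in WT and 394 and 458 in KO (log2 fold change 1.69 ± 0.18 SE, adjusted p = 1.69e-07 by edgeR). RPF reads numbered only 7 and 4 in WT and 22 and 30 in KO. The RPF log2 fold change was 1.29 with a 95% interval of 0.06 to 2.52 (limma adjusted p = 0.122; edgeR adjusted p = 0.137). It was called when WT RPF replicate 1 was left out (1.77, limma adjusted p = 0.0294) and in a limma fit that shared its spread over all 8 libraries (adjusted p = 0.0111).

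TAPBP (ENSG00000231925; chr6:33299694-33314284, minus strand), which encodes tapasin, moved least of the 9 members. Input counts were 1579 and 1433 in WT and 2506 and 3311 in KO. The log2 fold change was 0.59 ± 0.12 (SE, adjusted p = 0.000636 by edgeR), a 1.502-fold rise. Without WT input replicate 1 or replicate 2 the adjusted p became 0.0630 or 0.109. RPF reads were 443 and 441 in WT and 928 and 1198 in KO, which after normalization left the groups just apart, at most 1052 reads in WT and at least 1119 in KO. The RPF log2 fold change of 0.34 was not called (95% interval 0.08 to 0.60, limma adjusted p = 0.0563; edgeR adjusted p = 0.0552). It passed the threshold under 6 of 15 alternatives, with adjusted p from 0.00562 to 0.488 over all of them.

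NLRC5 (ENSG00000140853; chr16:56989485-57083531, plus strand), the class I transactivator, was higher in KO by more in input than in RPF. Input counts were 220 and 156 in WT and 550 and 707 in KO (log2 fold change 1.38 ± 0.16 SE, adjusted p = 8.58e-07 by edgeR). RPF reads were 84 and 105 in WT and 236 and 316 in KO. The RPF log2 fold change was 0.62 ± 0.19 (SE, adjusted p = 0.0258 by limma; edgeR adjusted p = 0.0242). It lost its call without KO RPF replicate 1 (0.78, adjusted p = 0.0619) or replicate 2 (0.47, adjusted p = 0.356).

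Ordered by input level per length in WT, B2M came first at 517 ± 5.17 TPM, followed by TAPBP (78.4 ± 2.57), HLA-E (49.5 ± 5.50), HLA-B (44.6 ± 1.16), HLA-C (38.8 ± 3.32), TAP1 (11.3 ± 0.907), TAP2 (4.26 ± 0.678), NLRC5 (3.98 ± 0.820) and HLA-F (1.41 ± 0.223; SD, n = 2 throughout). The ranges of mean ± SD overlapped for HLA-E and HLA-B, and for TAP2 and NLRC5. Both WT libraries of HLA-E, at 53.4 and 45.6 TPM, were still above those of HLA-B, at 43.8 and 45.4. These differences between genes were not tested. In KO, B2M was at 1323 ± 71.2 TPM, HLA-B came next at 497 ± 26.3, ahead of HLA-C at 246 ± 24.6. TAPBP followed at 101 ± 1.65 and HLA-E at 79.4 ± 6.96, then TAP1 at 55.3 ± 2.51, TAP2 at 11.9 ± 1.27, NLRC5 at 8.96 ± 0.319 and HLA-F at 8.18 ± 1.33. The ranges of mean ± SD of NLRC5 and HLA-F overlapped there.

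TE, the RPF level relative to input, asks whether footprints changed more or less than the mRNA did. It was tested as the interaction of genotype and library type with limma over 11240 genes, and 0 of 9 members were called, against 4.79% of all genes called in either direction. With edgeR on recovered reads 0 of 9 were called as well, against 6.81% of all genes, and DESeq2 called 1. At an unadjusted p under 0.05 there were 2 members, HLA-B and NLRC5, both lower in KO, by limma, by edgeR and by DESeq2. With a trend on coding GC content removed, limma gave HLA-E, higher in KO, and NLRC5, lower. The share of all genes at that unadjusted threshold was not counted, so the number of members has no background. The members' median TE change was -0.36 on the log2 scale beside 0.02 over all genes. With the GC trend removed this median was -0.12, beside 0.01 over all genes. TE changes were below 0 for 7 members and above 0 for HLA-E and B2M.

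HLA-B had log2 TE values of 1.75 and 1.62 in WT and 1.36 and 1.08 in KO, so the knockout lysates were lower without overlap. The change was -0.46 with a 95% interval of -0.78 to -0.15 (limma adjusted p = 0.0803; edgeR adjusted p = 0.0591). DESeq2 called it (adjusted p = 0.0487), as did limma after quantile normalization (-0.62, adjusted p = 0.0230). Removing a trend on coding GC content brought it to -0.12 (adjusted p = 0.590). The coding sequence of HLA-B has 64.2% GC, beside 45.9% in B2M, the lowest of the members, and 65.1% in HLA-C, the highest. Even at the lower KO values, HLA-B had a higher mean TE than 87.6% of genes, and in WT it exceeded 93.4%. TE levels carry no length correction, and input and RPF were counted by different pipelines. Ranks between genes, here and for TAP2 below, are limited by this. The part of shared sequence in the level of HLA-B, 84.4% of windows within 2 mismatches, was not tested.

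NLRC5 had log2 TE values of 0.41 and 0.92 in WT and -0.22 and -0.01 in KO. The change of -0.78 was the most negative among the members (95% interval -1.34 to -0.22, limma adjusted p = 0.0915; edgeR adjusted p = 0.0631), and no alternative called it. HLA-F followed at -0.75 with a wide interval of -1.69 to 0.20, and its knockout lysates differed from each other, at 0.64 and 0.12, by more than its wild-type lysates, at 1.060 and 1.2003. TAP1 changed by -0.36 (95% interval -0.77 to 0.04), with 1.35 and 1.09 in WT and 0.91 and 0.80 in KO. The knockout lysates were below the wild-type lysates for each of these 3 genes, yet none passed the threshold. How many of all genes show such a gap was not counted.

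TAPBP (-0.26, 95% interval -0.61 to 0.10) and HLA-C (-0.12, -0.54 to 0.30) were nearer 0, and both turned positive when the GC trend was removed, to 0.08 and 0.23. For HLA-C the lysates of the genotypes overlapped. HLA-E (0.13, 95% interval -0.29 to 0.55) and B2M (0.20, -0.12 to 0.52) were the members above 0 in the limma test, with B2M at -0.00 after quantile normalization. The interval of B2M leaves room for a rise in TE of up to 0.52 or a fall of 0.12. TAP2 stood apart with log2 TE values of -1.88 and -3.16 in WT and -3.11 and -2.74 in KO, lower than all but 3.02% of genes in WT and 1.61% in KO. Only 6.11% of its coding windows are its own, since 93.9% also lie in ENSG00000250264, and the part of this overlap in its TE level was not tested. Its change of -0.41 had the widest interval, -1.46 to 0.65, and turned to 0.23 without WT replicate 1.

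**Figure D4:**
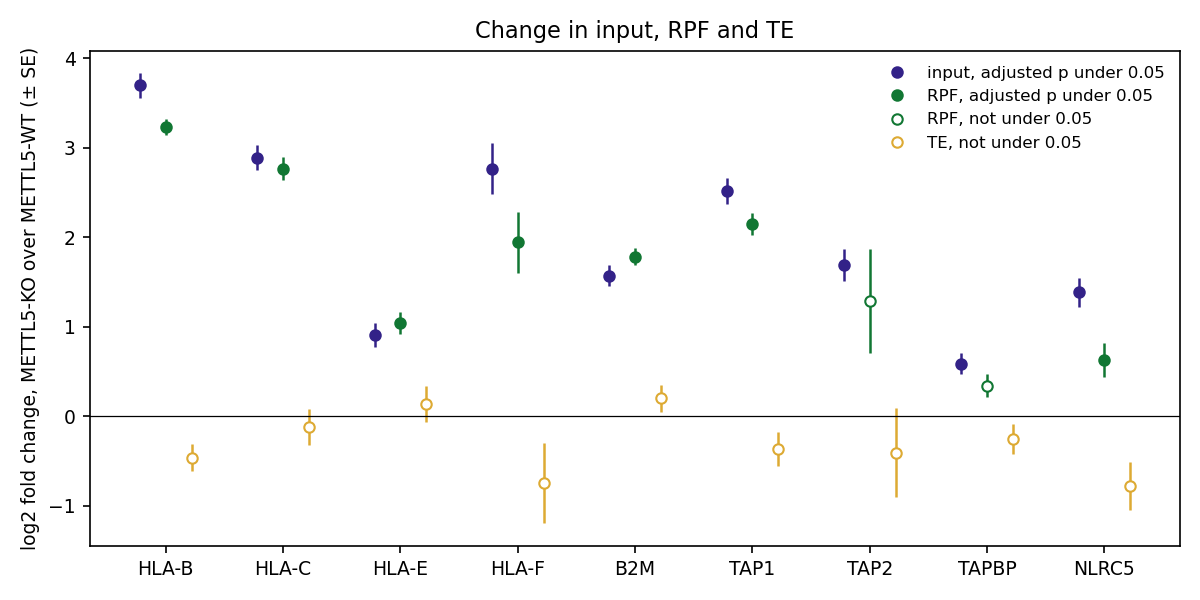
Log2 fold change of KO over WT (vertical axis, bars are SE) in input, RPF and TE for each gene. Filled points have adjusted p under 0.05 and open points do not. Input points are filled for all 9 genes, RPF points for all but TAP2 and TAPBP, and TE points for none.

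**Figure D5:**
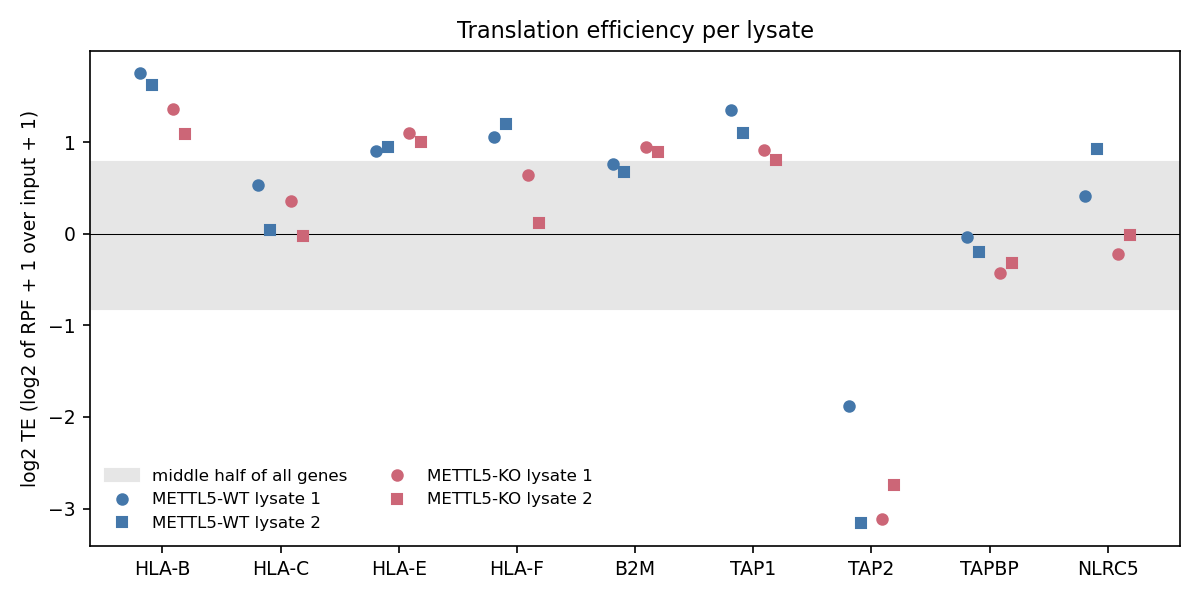
Log2 TE of each gene in each of the 4 lysates, from normalized reads plus 1. The grey band spans the lower to upper quartile of all 11244 genes. HLA-B is highest, from 1.08 to 1.75, and TAP2 lies far below the band, from -3.16 to -1.88.

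Since class I genes are known to carry ISRE-like elements upstream, the 250 bases before each RefSeq start were searched in both strands for GAAANNGAAA, an ISRE pattern, and for GAAGTGAAA, a shorter run read from the HLA-B and HLA-C windows. RefSeq promoter windows (GRCh38.p14) were matched for 7 members. HLA-E and NLRC5 were not matched. The ISRE pattern occurred upstream of B2M, HLA-F, TAP1, TAP2 and TAPBP, and in 3.02% of all 35116 promoter windows. GAAGTGAAA occurs upstream of HLA-B and HLA-C by construction, since it was read from their windows, and no other matched member held it. Its share of 0.439% of all windows shows only how common the run is. The pentamer CCAAT, the NF-Y motif, was found upstream of B2M, HLA-B, HLA-C, HLA-F and TAP1 but also in 32.0% of all windows. GGGATTCC, an NF-kappaB-like run, was found upstream of HLA-B and in 0.948% of all windows. The stretches below show these elements for 6 of the genes that rose in input, with the matched letters in capitals. Runs that begin with TTTC are matches read from the opposite strand.
HLA-B, bases -166 to -137 from the start, chr6:31357316-31357345 (minus strand): actcccctgagTTTCACTTCttctcccaac
HLA-C, bases -162 to -133, chr6:31272225-31272254 (minus strand): actcccctgagTTTCACTTCtcccaacctg
HLA-F, bases -166 to -137, chr6:29723268-29723297 (plus strand): ctccccagagTTTCTCTTTCtctcccaacc
B2M, bases -151 to -122, chr15:44711366-44711395 (plus strand): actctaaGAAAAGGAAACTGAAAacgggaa
TAP1, bases -141 to -112, chr6:32853816-32853845 (minus strand): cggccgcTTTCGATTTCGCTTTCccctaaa
TAP2, bases -68 to -39, chr6:32838778-32838807 (minus strand): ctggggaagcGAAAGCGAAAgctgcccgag

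HLA-B and HLA-C hold the same 20 bases at this place, from actcccc to TTTCACTTC, and HLA-F holds a related run. In B2M and TAP1 overlapping matches follow each other. The matches of B2M and TAP1 lie in an exon of 1 annotated transcript each, none of them the canonical one, and that of TAPBP, not shown, in exons of 16. A match is a description of letters, and no binding was measured.

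Members lie on 3 chromosomes. Of the 102 other tested genes between HLA-F and TAPBP on chromosome 6, which holds 7 members, 17 (16.7%) were higher and 2 lower in KO input, with a median log2 fold change of 0.22. The 20 tested neighbours of each chromosome 6 member, 10 on each side, had medians of 0.08 to 0.60, and those of B2M 0.14. The neighbours of NLRC5 on chromosome 16 went the other way, with a median of -0.50, 14 of 20 lower and 0 higher, while NLRC5 itself rose by 1.38.

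The rest of the class I pathway was read from lists of genes by role. In the immunoproteasome and proteasome activator list, which supplies peptides, 4 of 5 genes rose in input and the same number in RPF, with median log2 fold changes of 1.03 and 1.12. PSMB8, a catalytic subunit swapped into the immunoproteasome, went from 60 and 41 input counts to 922 and 1112, a log2 fold change of 3.97, above that of HLA-B. PSMB9, another such subunit, changed by 3.42 in input, and the activator subunits PSME2 and PSME1 by 1.03 and 0.82. PSMB10 was not called in input (0.73, edgeR adjusted p = 0.188). TE was called for 0 of the 5.

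Genes for peptide trimming and heavy chain folding did not follow the members. Of 5 tested in input, 0 rose and 2 fell, with a median of -0.32. PDIA3, a thiol oxidoreductase of the loading complex, fell by 0.55 on the log2 scale (edgeR adjusted p = 0.001202), and the chaperone CALR fell by 0.40 (edgeR adjusted p = 0.0164). In RPF, PDIA3 was lower (-0.42, limma adjusted p = 0.01005) and the aminopeptidase ERAP1 higher (0.88, limma adjusted p = 0.0422).

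Among 12 factors known to act on class I transcription, 4 rose in input and 0 fell, with a median of 0.19. IRF1, an interferon-induced activator, changed by 0.88 (edgeR adjusted p = 0.00135), the RFX subunit RFX5 by 0.53 and RELA by 0.44. IRF1 was also higher in RPF, by 1.03 (limma adjusted p = 0.00524). Of the 4 genes for the interferon-gamma receptor and its kinases, 0 were higher and JAK1 was lower in input (-0.32, edgeR adjusted p = 0.0473).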

How the data were processed

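Groups and replicate numbers came from the sample titles. For input, the authors trimmed reads, aligned them to hg38 with STAR 2.7.3a and deposited raw read counts per gene (featureCounts 1.6.0 per the labels, uniquely mapped reads, by strand, over exons); 3 broken lines were left out of the 60718 genes read. For RPF, the authors used RiboToolkit (fragments of 25 to 34 nucleotides, up to 2 mismatches, 1 mapping place). The authors named the deposited signal values RPKM, but 100% of them are whole reads (tolerance 0.01 of a read) times a constant per library, so they are reads divided by a size factor. They are called normalized reads here. The table also holds the authors' log2 fold change, p-value and adjusted p-value of TE, which were not used.

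Counts of input libraries went into the quasi-likelihood test of edgeR 4.0.16 with TMM and filterByExpr. Its SE is the log2 fold change over the square root of F. RPF (the 4 RPF libraries) and TE (all 8) were compared on log2(value + 1) by limma 3.58.1, eBayes using a variance trend, where the mean reached 1 in input and in RPF. Fold changes on that scale understate those of low genes. Tests are two-sided, with Benjamini-Hochberg adjustment over all genes tested and calls at adjusted p under 0.05. Of 11240 genes, limma called 2744 in RPF and 538 in TE, and edgeR on recovered reads 2872 and 766. DESeq2 1.42.0 was an alternative. R 4.3.3 and Python 3.11.15 were used, and the models were tested on simulated data.

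Start positions of 99.9% of genes shared with GENCODE release 44 lay within 100 kb, so coordinates from it are given as hg38. Per the protocol, an input library and the RPF library that carries its genotype and number share 1 lysate. Their deviations from group means correlated at -0.016 in METTL5-WT and 0.053 in METTL5-KO over genes.

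The members and lists were chosen with earlier results of these data known. Named were all members, METTL5, and from each list up to 4 called genes with the largest changes and at least 10 mean normalized reads. Genes of the lists that were not called were named after their values were seen. Some items are not reported here.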

Additional observations from a re-analysis of the deposited data

How the results depend on the processing

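Of the members' input changes, 70 of 72 values under an alternative kept their direction and side of the threshold, and 2 lost the call (TAPBP). In RPF 124 of 135 did, 8 gained a call (TAP2 and TAPBP) and 3 lost it (NLRC5). In TE 141 of 153 did, 2 gained a call (HLA-B), 8 changed sign and 2 (HLA-F and TAP2 with DESeq2) kept their direction without an adjusted p. These were HLA-C with the GC trend removed, alone or with the replicate block on the lysate (0.23 in both), and without WT replicate 1 or KO replicate 2 (-0.37 to 0.13 over the 4 lysates left out), TAPBP with the GC trend removed, alone or with that block (0.084 in both), B2M after quantile normalization (-0.0007) and TAP2 without WT replicate 1 (-1.05 to 0.23). No cause of these was tested.

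Members called in TE numbered 1 with DESeq2 and with quantile normalization, and 0 under the other 15 alternatives. Without 1 library, 8 to 9 members were called in input and 6 to 9 in RPF, with the lone library assumed to vary like the others. Over all genes, leaving out 1 library gave 1220 to 5474 calls in input (3149 with all), 1467 to 3211 in RPF (2744) and, by lysate, 4 to 266 in TE (538). TE calls were 838 with DESeq2, 1 without the variance trend and 283 with the GC trend removed. Of the TE calls, 56.5% were higher with limma, 45.95% with edgeR, 42.2% after quantile normalization and 66.8% with the GC trend removed.

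With the replicate block on the lysate, 794 genes and 0 members were called in TE. Replicate numbers did not pair the genotypes (r = 0.039 for input, r = -0.002 for RPF). With the number as replicate block there were 3554 calls in input, 3141 in RPF and 764 in TE, and changed 1 member's call, TAPBP in RPF (adjusted p = 0.0207). The fewest reads behind a member were those of TAP2 and HLA-F in METTL5-WT RPF, 4 to 21 per library.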

Other observations

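Class I relatives outside the member set moved in part. Of 12 other class I and class I-like chains, pseudogenes included, 10 were tested in input, 5 rose and 0 fell, with a median log2 fold change of 1.67. The non-classical heavy chain HLA-G had 44 and 26 input counts in WT and 146 and 208 in KO (log2 fold change 1.97, edgeR adjusted p = 1.08e-05) and was also higher in RPF (2.18, limma adjusted p = 0.00159). The pseudogene HLA-H had 50 and 45 counts in WT and 237 and 332 in KO (2.21, edgeR adjusted p = 6.51e-08), and 49.6% of the coding windows of HLA-B match it within 2 mismatches. The stress ligands MICA (0.18) and MICB (0.30), and the class I-like HFE (-0.17) and MR1 (-0.12), were not called in input.

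MHC class II genes, which present peptides from outside the cell, stayed near the floor. Of 10 listed, 9 had at most 10 counts in every input library, including 0 to 1 for HLA-DRA and 3 to 10 for CIITA, their transactivator and a relative of NLRC5. HLA-DMA was the only one tested, with 35 and 40 counts in WT and 56 and 73 in KO (log2 fold change 0.42, edgeR adjusted p = 0.386), and it was called higher in RPF (1.26, limma adjusted p = 0.0188).

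Interferon-stimulated effector genes rose alongside the members. Of 34 tested in input, 33 were higher, with a median of 2.02, and of 29 tested in RPF 28 were higher, with a median of 2.05. IFI27 had 15 and 12 input counts in WT and 1382 and 1782 in KO (log2 fold change 6.50, edgeR adjusted p = 7.39e-17), and IFI44L had 3 and 4 against 818 and 966. MX1, with 9 to 25 counts, was the gene not called in input. In TE, 0 of 29 were called higher and 1 lower, IFI44L (-1.97, limma adjusted p = 0.0247). The median TE change of the list was 0.26, beside -0.36 for the 9 class I members, and the difference between the lists was not tested. With the GC trend removed the members' median was -0.12, and that of this list was not computed.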
